A study of Hydra viridissima with 2 samples.

Results

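The genes described here are the gene models of the green hydra, Hydra viridissima, that are split into 30 or more exons, have a coding length under 10000 nt and reached a mean level of at least 1 CPM, the counts of a gene scaled to a common library total. They numbered 473 of the 34573 models in the deposited count table, and 2.93% of the 16162 models of any structure that reached the same level. The rule uses the annotation and the mean level of both libraries, and not their ratio. Exon rows that overlapped or repeated each other were merged before exons were counted. Of 555 models with 30 or more exons, 475 were under 10000 nt, and 2 of these lay below 1 CPM. The table pairs no identifier with a gene name, so the genes are given by scaffold and position in the coordinates of the table, and no function is attached to any of them. Their genome build was not given in the sources used here.

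Total RNA of whole polyps was sequenced in paired reads, with 1 aposymbiotic library, from animals without algae, and 1 green/symbiotic library, from animals that carry them. Both came from clone 2, held at 24 °C, fed brine shrimp 3 to 4 times a week and taken 2 to 3 days after a meal. Each library pooled about 200 large animals, and the RNA integrity number was 10. Ribosomal RNA was removed enzymatically. Both conditions are thus a single clone and a single pool, and each difference below is a difference between 2 libraries, with no replicate, no test and no p-value. The labels name no cell type or tissue below the whole animal, and without gene names no marker could be checked.

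Green hydra is a freshwater polyp whose gut-lining epithelial cells house green algae, which pass on sugars made by photosynthesis. In the nucleus of such an animal the exons of a gene are transcribed together with the introns between them, and the spliceosome removes the introns and joins the exons. In animals, genes of many exons often encode large proteins built of repeated units, such as extracellular matrix proteins, motors and membrane proteins. An exon whose length is a multiple of 3 nt holds a whole number of codons, so it can be gained, lost or repeated without a shift of the reading frame.

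The aposymbiotic library held 5533508 counts and the symbiotic library 6905650. The members took 10.1% of the aposymbiotic and 10.4% of the symbiotic counts. All 473 members had counts in both libraries, and 468 of them had at least 100 counts in each. Their counts summed over both libraries had a median of 1433, against 193 for all 16162 tested models, so counting error is smaller for them than for most genes. The ratios below are log2 of symbiotic over aposymbiotic CPM after TMM scaling, which sets the libraries level on the trimmed mean of all gene ratios, with exact 95% intervals that cover counting error only.

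Their coding lengths ran from 2223 to 9816 nt with a median of 4659 nt, and their exon numbers from 30 to 80 with a median of 36. From first to last exon they spanned 8593 to 144688 nt, with a median of 24946 nt. The median exon had 103 nt, close to the 101 nt of models with 20 to 29 exons and the 105 nt of those with 10 to 19. The 95th percentile of internal exon length was 277 nt in the members and 376 nt in all other tested models of 3 or more exons. The median intron had 201 nt, against 220 nt over all tested models.

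All members lay on 19 of the 105 scaffolds, which also held nearly all of the 16162 tested models. Scaffold 2 held 59, scaffold 1 held 42 and scaffold 3 held 41, which made 3.57%, 2.20% and 3.25% of the tested models of those scaffolds. The share was of similar size on the smaller scaffolds, with 21 members on scaffold 14, or 3.95% of its tested models, and 15 on scaffold 15, or 3.27%.

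Of 17299 internal exons in the members, 43.4% had a length that is a multiple of 3, against 41.8% of 75332 internal exons in 9586 other tested models. In the 333 members with no alternative exon rows the share was 42.9%. Single members ranged from 7.14% to 97.8%. The most frequent internal length was 54 nt, which occurred in 277 exons of 122 members. It made up 1.60% of the members' internal exons and 0.688% of those of the other models. Of the 277 exons, 118 lay in 3 genes, described next. In the other members 54 nt made up 0.928% of internal exons, and the most frequent length there was 69 nt, with 206 exons.

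A subset of members looked like ladders, with 1 exon length recurring again and again. An internal exon length occurred at least 5 times in 33 members, or 6.98%, against 17 of the 871 tested models with 20 to 29 exons, or 1.95%. A gene with more exons has more chances to repeat a length, so these shares are a description of structure only. In 30 of the 33 the recurring length was a multiple of 3. The steepest ladders were a pair of genes on scaffold 16, at positions 64230 to 92988 and 6516820 to 6544954, each with 68 exons of which 45 had 54 nt. A gene on scaffold 8, at 10004761 to 10042902, had 55 exons, 42 of them of 171 nt. A gene on scaffold 1, at 3879734 to 3938136, had 29 of its 47 exons at 174 nt, and a gene on scaffold 10, at 8636443 to 8665270, had 28 of its 44 exons at 54 nt. On scaffold 12, at 11531760 to 11571303, 18 of 37 exons had 138 nt, and on scaffold 5, at 3596610 to 3620670, 18 of 35 exons had 99 nt.

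**Figure D1:**
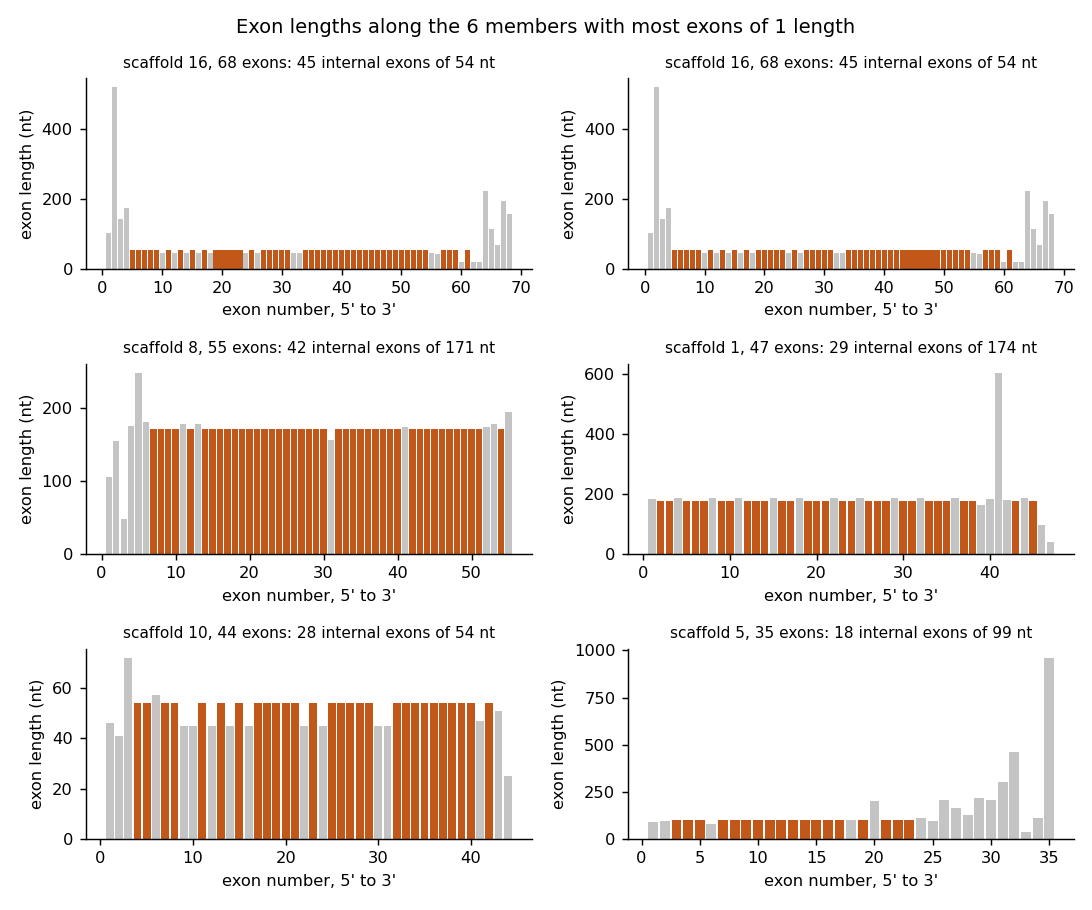
Exon length in nt (vertical axis) against exon number from the 5' to the 3' end (horizontal axis) for 6 members with the most internal exons of 1 length. Orange bars are exons of the most frequent length and grey bars all others; in the pair on scaffold 16, 45 of 68 exons have 54 nt, in 11 runs of up to 21 exons broken by exons of other lengths. The scaffold 8 gene has runs of up to 17 exons, and in the scaffold 1 gene no run is longer than 3. A further gene on scaffold 12, with 18 exons of 138 nt, ties with the last panel and is not drawn.

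In 6 members the recurring unit was a cycle of 2 or 3 unlike exons, repeated at least 3 times back to back. In a gene on scaffold 12, at 11363756 to 11377184, exons of 174, 186 and 174 nt followed each other 6 times, from exon 7 to exon 24 of 33. That cycle adds up to 534 nt. In a gene on scaffold 2, at 7401847 to 7435073, exons of 34, 164 and 84 nt followed each other 6 times, from exon 25 to exon 42 of 49. Neither 34 nor 164 is a multiple of 3, but the cycle of 282 nt is. In the 68-exon pair on scaffold 16, exons of 54 and 45 nt alternated 5 times, from exon 9 to exon 18. In the 44-exon gene on scaffold 10, they alternated 4 times, from exon 10 to exon 17. These cycles had 99 nt. The last was a gene on scaffold 7, at 12882930 to 12902431, with 48 and 69 nt alternating 4 times. All 6 cycles summed to a multiple of 3. Apart from the cycle of 282 nt, this had to be so, since each of their exons is a multiple of 3.

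Most many-exon genes had close to the same level with and without the algae. The members' log2 ratios had a 5th percentile of -0.21 and a 95th percentile of 0.27, and 469 of the 473 lay within 0.5 of equality, or 99.2%. The share was 97.8% in models of 20 to 29 exons, 95.8% in those of 10 to 19 exons and 82.2% over all tested models, most of which have fewer counts. By the rule of at least 1.5-fold with an interval that excludes equality, 2 members were higher in the symbiotic library and 1 was lower. That is 0.423% and 0.211% of the members, against 2.3% higher and 2.78% lower over all tested models. At 2-fold, 0 members were higher and 1 was lower, against 0.947% and 1.42% of all tested models. Set beside other models in the same range of counts, 0.704% of members and 2.39% of others passed 1.5-fold in either direction at 300 to 1000 counts. The shares were 0% and 2.14% at 1000 to 3000 counts, and 0% and 1.76% from 3000 counts upward. At 100 to 300 counts, with only 11 members, they were 9.09% and 6.44%.

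**Figure D2:**
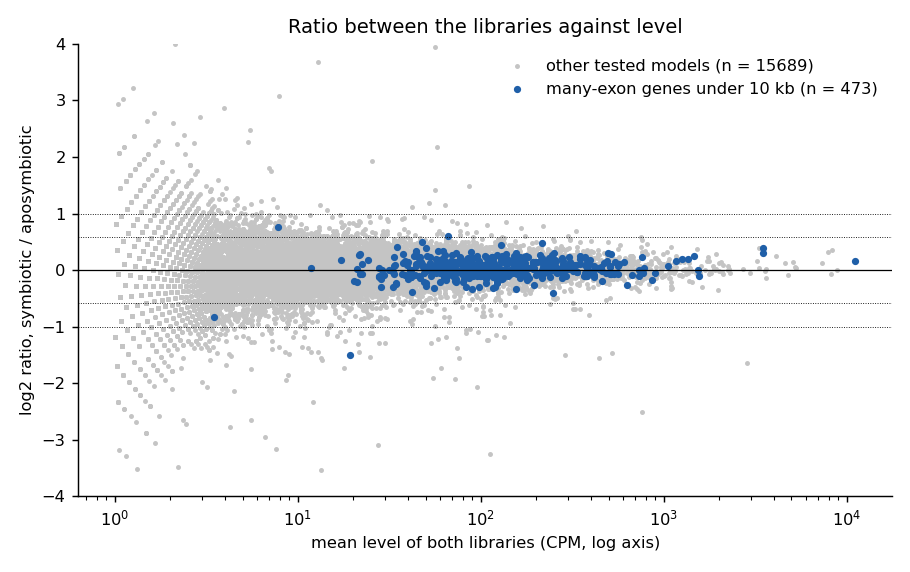
Log2 ratio of symbiotic over aposymbiotic level (vertical axis) against the mean level of both libraries in CPM (horizontal log axis), with 1 point per tested model. Blue points are the 473 many-exon genes and grey points the other 15689 models, the dotted lines mark 1.5-fold and 2-fold, and 20 models lie outside the plotted range of -4 to 4. The blue points keep close to the line of equality, apart from 1 gene at -1.51 and 3 others past 1.5-fold.

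When the fold was left aside and only the interval had to exclude equality, 111 members were higher in the symbiotic library and 47 were lower. These were 23.5% and 9.94% of the members, against 10.5% and 7.9% of all tested models. The narrower intervals of well-counted genes raise such shares, so the members were set beside other models of like counts. Among genes of 300 to 1000 counts, 12.0% of 142 members and 13.3% of 3761 other models were higher, and 6.34% and 8.64% were lower. Among genes of 1000 to 3000 counts, 24.0% of 221 members and 25.5% of 1590 others were higher, and 9.05% and 14.5% were lower. From 3000 counts upward, 41.2% of 97 members and 36.1% of 626 others were higher, and 17.5% and 26.8% were lower. In the range of 100 to 300 counts, with only 11 members, 0 were higher and 1, or 9.09%, was lower, against 7.16% and 6.98% of 3713 other models. At like counts the share on the higher side was thus near that of the other models. The share on the lower side was smaller in members in the 3 ranges from 300 counts upward and larger in the range of 11 members.

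From 300 counts upward, the spread of the ratios was a little narrower than in other models of the same range of counts. The robust standard deviation, from the median absolute deviation, was 0.17 among members of 300 to 1000 counts and 0.20 among the other models. It was 0.13 against 0.17 from 1000 to 3000 counts, and 0.15 against 0.16 from 3000 counts upward. Counting error by itself gives 0.11, 0.073 and 0.042 for the members in these ranges. The observed spread exceeded counting error by most where the counts were highest, an excess that lies outside what the intervals cover.

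The median log2 ratio of the members was 0.036, against 0.013 for all tested models, and 278 members, or 58.8%, lay above 0, against 51.9% of all tested models. Scaled by total counts alone, which shifts all genes alike, the median was 0.0092 in the members and -0.014 in all tested models, and the shares above 0 were 51.8% and 48.2%. With the 100 largest genes left out of the totals, the shares were 52.9% and 49.1%. The medians differed little between classes of exon number under 10000 nt. They were -0.0027 for 4138 models of 1 exon, 0.0085 for 7827 models of 2 to 9 exons, 0.021 for 2734 of 10 to 19 exons and 0.029 for 871 of 20 to 29 exons. The 80 models with 30 or more exons and 10000 nt or more had a median of 0.071, and 67.5% of them lay above 0. These differences are small beside the spread of the members' ratios.

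**Figure D3:**
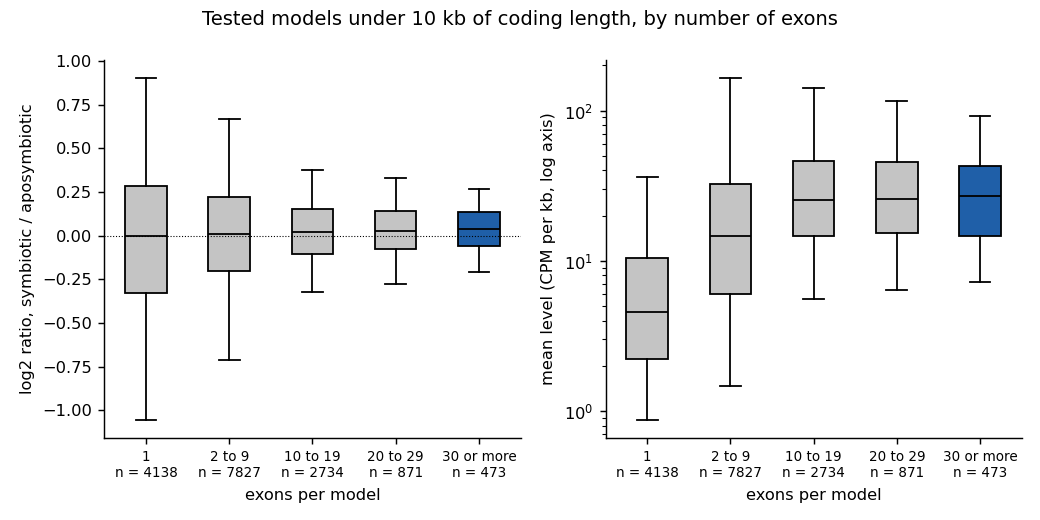
Log2 ratio of symbiotic over aposymbiotic level (left) and mean level in CPM per kb on a log axis (right) for tested models under 10000 nt, by number of exons. Boxes span the quartiles with a line at the median, whiskers reach the 5th and 95th percentiles, and the blue box is the 473 many-exon genes. Their ratios lie between -0.21 and 0.27 at the whiskers, and their median level of 26.8 CPM per kb is close to that of models with 10 to 29 exons.

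Per kilobase of coding length, the many-exon genes were expressed at a median of 26.8 CPM per kb, with a 5th percentile of 7.22 and a 95th of 92.5. Models of 20 to 29 exons had a median of 25.6 CPM per kb, models of 10 to 19 exons 25.2, models of 2 to 9 exons 14.6 and single-exon models 4.55. The level in these classes was thus much the same from 10 exons upward. Among the 80 longer models the median was 17.9 CPM per kb. Across the 473 members, the level per kb had a Spearman correlation of -0.0014 with coding length and -0.046 with exon number. The log2 ratio had a correlation of 0.057 with coding length and -0.0053 with exon number. All of these points share the same 2 libraries.

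A single gene stood far above the rest. The gene with the 174, 186 and 174 nt cycle on scaffold 12, on the plus strand with 5916 nt in 33 exons, had 58852 aposymbiotic and 80946 symbiotic counts. That was 1781 CPM per kb without algae and 2000 CPM per kb with them. It alone held 10.6% of the members' aposymbiotic and 11.3% of their symbiotic counts. Its log2 ratio was 0.17 (0.15 to 0.18), a difference clear of counting error but small.

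The next in level were a gene on scaffold 7, at 14351650 to 14393982, and a gene on scaffold 12, at 3913234 to 3949783. The former, with 32 exons, had 17579 aposymbiotic and 26385 symbiotic counts, or 386 and 473 CPM per kb, and a log2 ratio of 0.29 (0.27 to 0.32). The latter, with 50 exons, had 16818 and 27021 counts, or 311 and 408 CPM per kb, and a log2 ratio of 0.39 (0.36 to 0.42). Both were thus higher with algae, though by less than 1.5-fold.

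The gene with the 34, 164 and 84 nt cycle on scaffold 2 came next per kb and was the only 1 of the 10 members with the most counts that lay below equality. It had 9035 aposymbiotic and 10344 symbiotic counts, or 341 and 319 CPM per kb, and a log2 ratio of -0.097 (-0.14 to -0.056). The gene on scaffold 3 at 19261716 to 19279800, with 31 exons, was level between the libraries. Its counts were 8601 and 10568, or 253 and 254 CPM per kb, and its log2 ratio was 0.0048 (-0.036 to 0.046).

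The remaining genes of highest level were all somewhat higher in the symbiotic library. On scaffold 1, the gene at 8414875 to 8435593 had 268 and 319 CPM per kb and a log2 ratio of 0.25, the gene at 2056571 to 2079667 had 210 and 220 CPM per kb and 0.071, and the 59-exon gene at 9075139 to 9104522 had 129 and 148 CPM per kb and 0.20. On scaffold 6, the gene at 899821 to 916469 had 166 and 183 CPM per kb and a log2 ratio of 0.14, and the gene at 5604140 to 5643280 had 134 and 150 CPM per kb and 0.16. On scaffold 4, the gene at 4514186 to 4538954 had 144 and 164 CPM per kb and a log2 ratio of 0.19. The 10 members with the most counts held 25.9% of the members' aposymbiotic and 28.0% of their symbiotic counts, and 9 of them lay above 0. The summed counts of all members gave a log2 ratio of 0.076 (0.071 to 0.081). Without the most abundant gene that ratio was 0.065, and without the 3 most abundant genes, left out after their values were seen, it was 0.042. The sum therefore rests in good part on 3 genes.

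Ranked by the interval bound nearest to equality, the member most clearly higher in the symbiotic library was cHydvir-v1B3C1_g15741, on scaffold 2 at 3850382 to 3866990, with 6927 nt in 30 exons. It had 292 aposymbiotic and 546 symbiotic counts, or 7.55 and 11.5 CPM per kb, which made it 1.53-fold higher, with a log2 ratio of 0.61 (0.40 to 0.82). Scaled by total counts alone it fell just short of 1.5-fold, and the count of members past that fold was then 1. The second by that ranking was cHydvir-v1B3C1_g8679, the abundant 50-exon gene on scaffold 12. The third was a compact gene on scaffold 3, at 17831594 to 17840186, with 2595 nt in 32 exons and the shortest span of all members. Its counts were 1007 and 1711, or 69.5 and 96.4 CPM per kb, and its log2 ratio was 0.47 (0.36 to 0.59). Next in order, a 36-exon gene on scaffold 4 at 10161318 to 10177775, had 614 and 1024 counts, with a log2 ratio of 0.45 (0.30 to 0.59). The fifth was the abundant gene on scaffold 7 at 14351650 to 14393982. The other member past 1.5-fold was a 39-exon gene on scaffold 4 at 16679384 to 16699843, with 32 and 67 counts, with a log2 ratio of 0.77 (0.15 to 1.43), so its size is poorly fixed at this depth.

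The 1 many-exon gene that stood apart on the lower side was cHydvir-v1B3C1_g4794, on the plus strand of scaffold 10 at 4485981 to 4507500, with 5910 nt in 35 exons. It had 159 aposymbiotic and 68 symbiotic counts, or 4.82 and 1.68 CPM per kb. It was 2.85-fold higher in the aposymbiotic library, with a log2 ratio of -1.51 (-1.95 to -1.10). Its span holds 2 single-exon models on the opposite strand, with 5 and 2 counts and with 4 and 4 counts, and neither shares exon positions with it. The other members most clearly lower differed far less. The second was cHydvir-v1B3C1_g8156, on scaffold 11 at 15801097 to 15837940 with 30 exons, which had 1587 and 1463 counts, or 54.8 and 41.2 CPM per kb, and a log2 ratio of -0.41 (-0.51 to -0.31). Following it, a 46-exon gene on scaffold 8 at 12460453 to 12496487 had 3843 and 3902 counts, with a log2 ratio of -0.27 (-0.34 to -0.21). Next came a 33-exon gene on scaffold 5 at 4305767 to 4329159, with 969 and 946 counts and a ratio (log2) of -0.33 (-0.46 to -0.20), and a 77-exon gene on scaffold 7 at 13299095 to 13354988, with 725 and 708 counts and a ratio (log2) of -0.33 (-0.48 to -0.17). The last holds 17 internal exons of 72 nt.

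The members with the most exons had low to middling levels per kb, between 11.6 and 27.5 CPM per kb against a median of 26.8 over all members. A pair of genes with 80 exons and 9123 nt each, on scaffold 14 at 2490319 to 2553836 and on scaffold 15 at 3672671 to 3731842, had 676 and 761 and 705 and 790 counts, with log2 ratios of -0.12 and -0.13. The intervals of both took in equality. The 77-exon gene on scaffold 7 followed. Of 3 genes with 70 exons, those on scaffold 2 at 16946029 to 16976836, on scaffold 4 at 1769444 to 1803902 and on scaffold 12 at 12088835 to 12126680 had log2 ratios of 0.20, -0.17 and 0.062. The genes richest in exons therefore lay on both sides of equality.

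Of the 33 ladder genes, with an internal exon length repeated at least 5 times, 24 had a log2 ratio above 0, beside 58.8% of all members. Their median was 0.14, against 0.028 for the other members. Their median level of 26.6 CPM per kb was close to the 26.8 of the others. In 11 members at least 90% of the internal exons were multiples of 3, and 9 of these lay above 0, with a median of 0.22 and a range of -0.094 to 0.24. These 11 include the most abundant gene, so the groups are not independent of the results above. The group of 11 was formed with the ratios of these libraries in view, and the limit of 5 repeats was set with earlier results of these data known. These values therefore describe the groups and support no lean in either direction.

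Single ladders differed in direction. The scaffold 12 gene with 18 exons of 138 nt had 3898 and 5623 counts, or 104 and 122 CPM per kb, and a log2 ratio of 0.24 (0.18 to 0.30). The scaffold 1 gene with 29 exons of 174 nt had 560 and 798 counts and 0.22 (0.061 to 0.38). The scaffold 8 gene with 42 exons of 171 nt had 2923 and 3405 counts and -0.072, and the scaffold 5 gene with 18 exons of 99 nt had 1072 and 1194 counts and -0.14 (-0.26 to -0.016). The pair with 45 exons of 54 nt on scaffold 16 had 281 and 360 and 240 and 343 counts, with log2 ratios of 0.065 and 0.22, and the intervals of both took in equality. The scaffold 10 gene with 28 exons of 54 nt had 252 and 289 counts and -0.094, also with an interval that took in equality.

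Some many-exon genes came in look-alike pairs. In 19 pairs, which held 38 members or 8.03%, both genes had the same series of exon lengths from the first exon to the last, for 30 to 80 exons. Such pairs held 8.27% of models with 20 to 29 exons and 9.77% of those with 10 to 19. The share among many-exon genes was thus close to that in the nearest classes. It was 4.83% of models with 2 to 9 exons. Only series of 5 or more exons were compared, so models of 2 to 4 exons could not count and that share is not a like figure. In 16 pairs the copies lay on different scaffolds. Scaffolds 14 and 15 shared 7 pairs, scaffolds 10 and 15, 16 and 18, and 4 and 17 shared 3 each, 2 pairs lay within scaffold 16 and 1 within scaffold 5. All 19 pairs differed in the span between the first and last exon, by a median of 4.31%.

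The pairs lay in collinear blocks. Over models of 8 or more exons, with or without reads, 258 pairs had the same series of exon lengths. Scaffolds 14 and 15 shared 59 of these, all on the same strand and in the same order, with a Spearman rho of 1 between the positions. Scaffolds 10 and 15 shared 55 and scaffolds 16 and 18 shared 20, all on opposite strands and in exactly reversed order, with a rho of -1. Scaffolds 4 and 17 shared 29 in nearly reversed order, with a rho of -0.9995. Of the 19 many-exon pairs, 16 sat within these 4 blocks. The other pairs there had fewer than 30 exons, apart from pairs of 63, 84 and 82 exons that were not members. The 13 pairs within scaffold 16, 2 of them of many-exon genes, also lay in reversed order, with a rho of -1. The 16 pairs within scaffold 5 followed no single order as a whole, with a rho of 0.69. The 12 of them on the same strand, with the many-exon pair among them, did lie in the same order.

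**Figure D4:**
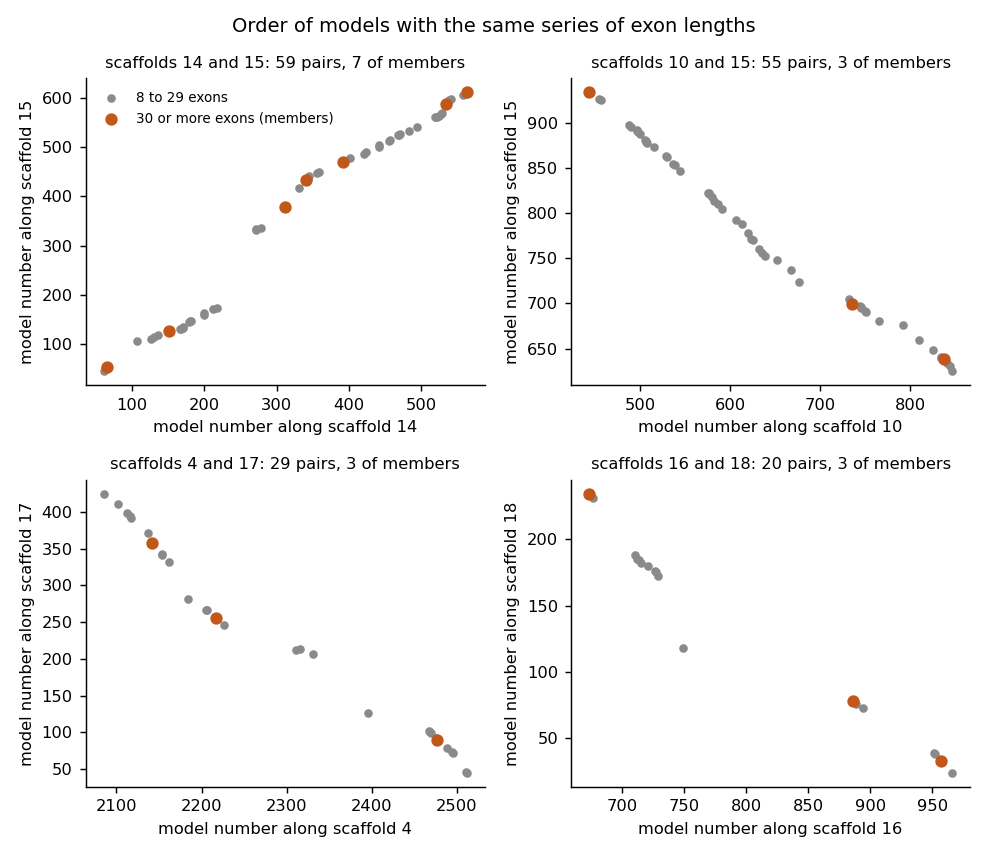
Place of each look-alike pair along 1 scaffold (horizontal axis, model number) and along its partner scaffold (vertical axis, model number), for the 4 scaffold pairs that share the most. Orange points are pairs of members and grey points pairs of models that are not members. Although the grey points are labelled 8 to 29 exons, they include pairs of 63, 84 and 82 exons. The 59 pairs of scaffolds 14 and 15 climb in 1 line, and the 55, 29 and 20 pairs of the other scaffolds descend.

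The copies of a pair were mostly expressed at like levels. The higher copy exceeded the lower by a median of 1.18-fold, with 3.40-fold as the widest gap, and 15 of 19 pairs lay within 1.5-fold. Only 1 pair was over 2-fold apart, a 46-exon pair with 118 aposymbiotic and 146 symbiotic counts on scaffold 4, at 20187137 to 20216775, and 423 and 470 counts on scaffold 17, at 629696 to 661521. The copies with the most even levels were a 43-exon pair on scaffolds 14 and 15, with 353 and 517 counts in the first copy and 401 and 460 in the second.

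The log2 ratios of the copies differed by a median of 0.13. The robust standard deviation over all members was 0.15, but that is a spread of single values and not of differences. Paired members also had fewer counts, with a median of 655 against 1485 for the other members. Whether copies are more alike than other members was not tested. Both copies lay on the same side of 0 in 9 pairs. The 95% counting interval of the difference excluded 0 in 2 pairs and was wide in most others. The 30-exon pair at 4438023 to 4449072 on scaffold 14 and at 5728943 to 5740001 on scaffold 15 matched most closely among the well-counted pairs. Its copies had 2497 and 3746 counts and 2586 and 3869 counts, with log2 ratios of 0.29 and 0.29. The 49-exon pair within scaffold 16 had 4320 and 5454 counts and 3038 and 4023 counts, with log2 ratios of 0.044 and 0.11. The widest gap, 0.35, was in the 43-exon pair, with 0.26 (0.060 to 0.46) on scaffold 14 and -0.094 (-0.29 to 0.10) on scaffold 15. The interval of that gap was 0.077 to 0.63. The other pair with an interval clear of 0 had 53 exons, with -0.14 on scaffold 10 at 3656217 to 3689647 and 0.078 on scaffold 15 at 10354551 to 10384913, a difference of -0.21 (-0.38 to -0.046).

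**Figure D5:**
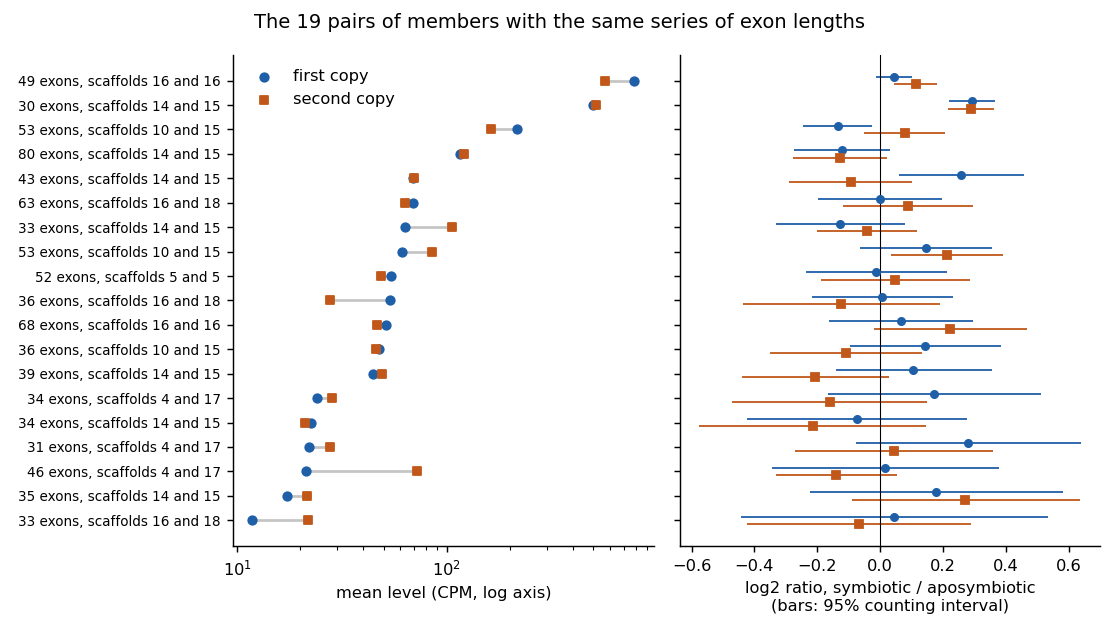
Mean level in CPM on a log axis (left) and log2 ratio of symbiotic over aposymbiotic level (right) for both copies of the 19 look-alike pairs, labelled by exon number and scaffolds. Circles are first and squares second copies, and bars are 95% counting intervals. Levels of the copies lie within 1.5-fold in 15 pairs, and the log2 ratios differ by a median of 0.13 and by at most 0.35.

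Members of look-alike pairs had a lower level than the rest, with a median of 9.68 CPM per kb against 27.9 for the other members. With the counts of both copies summed, the median of the pairs was 20.1 CPM per kb. The counting admitted no read that aligned to several places, so a read that fits both copies equally well is in neither count, and the part of this in the lower level was not tested. Their median log2 ratio was 0.043, against 0.036 for the other members.

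Look-alikes of a looser kind stood side by side. In 19 cases a many-exon gene was the direct neighbour of another, 13 times on the same strand. In 6 of these the neighbours shared at least 50% of the internal exon lengths of the smaller gene. No such counts are given for other classes of models, so these numbers are a description of structure only. On scaffold 4, the 46-exon gene at 20187137 to 20216775 and the 44-exon gene at 20225077 to 20257076, on opposite strands, shared 42 internal lengths, which is 100% of the smaller. Their counts were 118 and 146 in the former and 25 and 17 in the latter, the lowest of all members. On scaffold 1, genes at 35606094 to 35629203 and 35634280 to 35653328, on opposite strands, shared 29 internal lengths. They had 690 and 1031 and 234 and 337 counts, with log2 ratios of 0.29 and 0.23. On scaffold 14, 3 genes of 41 or 42 exons followed each other on the minus strand, at 8376770 to 8403539, 8407574 to 8433357 and 8435810 to 8472940. Their levels stepped down from 761 and 935 through 387 and 521 to 236 and 260 counts, and their log2 ratios were 0.0048, 0.14 and -0.15.

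A tandem pair recurred on scaffolds 14 and 15, where 2 neighbours of 33 exons shared 26 internal lengths on each scaffold. On scaffold 14, at 466257 to 509307 and 512983 to 555509, they had 370 and 415 and 367 and 443 counts, with log2 ratios of -0.13 and -0.021. On scaffold 15, at 572333 to 614826 and 618514 to 657612, they had 601 and 715 and 308 and 476 counts, with log2 ratios of -0.042 and 0.34 (0.13 to 0.55). The last was the only 1 of the 4 whose interval excluded equality. Of the 19 neighbouring pairs, 9 lay on the same side of 0.

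The 2 models of the same structure that fell below 1 CPM were themselves a look-alike pair. They stood 1678 nt apart on the minus strand of scaffold 17, at 3319698 to 3340203 and 3341882 to 3362387, each with 8253 nt in 39 exons and the same series of exon lengths. They had 3 and 0 and 3 and 1 counts in the aposymbiotic and symbiotic libraries. At this depth no difference between the libraries was detectable for them.

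Few members overlapped other models. Another model overlapped 21 members, or 4.44%, against 3.10% of models with 20 to 29 exons and 2.44% of all tested models, and 19 of these had a partner on the opposite strand. Exon positions were shared in 1 case, a gene on scaffold 2 at 7596879 to 7618528, over 56 nt. The counting admitted no read that met several models, so a read over the shared positions is in neither count. Strand was not used in the counting, so sense and antisense reads of a member cannot be told apart. Alternative exon rows were listed for 140 members, or 29.6%, with up to 232 rows for 1 gene. The share was 30.2% in models of 20 to 29 exons and 35% in the 80 longer many-exon models, and 14.4% over all tested models. Without merging them, 493 further models would have had 30 or more rows.

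Genes just inside and just outside the limits of the rule were compared as a description. The 48 members with 30 exons had a median log2 ratio of 0.024, and the 47 models with 29 exons had 0.069. The 17 longest members, of 9054 to 9816 nt, had a median log2 ratio of 0.010, and the 16 models just beyond the limit, of 10038 to 10920 nt, had 0.17. Only 1 member had a mean level under 5 CPM.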

How the data were processed

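The authors deposited counts of read pairs per gene model, made with featureCounts of Subread 2.1.1 over exon rows summed by gene, per the file headers. The headers show no strand option and none that admits reads with several alignments or several overlapping models, and they name a BRAKER3 annotation. The submitters' processing notes also list deepTools 3.5.6, STAR 2.7.11b and fastp 1.1.0. The molecule field says polyA RNA, whereas the protocol describes total RNA with ribosomal RNA removed. Lengths are multiples of 3 in 98.4% of models and are called coding lengths; they were not in 34 members, all of which had alternative exon rows.

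From the deposited counts, CPM was computed on plain column totals for the choice of members, and for ratios on totals scaled by TMM (factors 1.01 aposymbiotic, 0.991 symbiotic) in edgeR 4.0.16 under R 4.3.3, with a prior count of 0.5. Each ratio has an exact 95% Clopper-Pearson interval conditional on the summed counts, and differences between copies have a normal-approximation counting interval. With 1 library per condition no test was possible. Models at 1 CPM or more, as a mean of both libraries, were tested. The calculation was checked on simulated counts.

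Members described singly were the 10 of highest level per kb, the 10 of highest CPM, the 5 with most exons, the 5 with most repeats of an exon length, and, in each direction, the 5 whose interval bound nearest to equality lay farthest from it. Look-alike pairs, cycles, neighbours and the group of 11 were chosen after their values were seen. The members and lists were chosen with earlier results of these data known. Lists by gene name were not formed. Alternatives covered scaling, thresholds of the rule, the prior count, the interval and overlap. Calculations ran in scipy 1.17.1, pandas 2.3.3 and numpy 2.4.6 under Python 3.11.15, and plots in matplotlib 3.10.9.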

Additional observations from a re-analysis of the deposited data

How the results depend on the processing

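Of 104 values recomputed under 14 other settings and 2 added after seeing the data, 74 stayed close to the reported value and 30 moved. Most are counts or percentages, which cannot change sign. The medians and summed ratios all stayed above 0. With total counts alone, the 95% interval of the median over genes, which are not replicates, was -0.010 to 0.025 and took in 0. So did the intervals without the 100 largest genes (-0.0029 to 0.032) and at 40 or more exons (-0.00037 to 0.062). Scaled by total counts alone, 1 member was at least 1.5-fold higher, the median log2 ratio was 0.0092, 51.8% of members lay above 0 and the summed ratio was 0.049. With upper-quartile scaling the summed ratio was 0.063. With totals without the 100 largest genes, the median was 0.016, the share above 0 52.9% and the summed ratio 0.056. A minimum of 25 exons gave 765 members and a summed ratio of 0.060. A minimum of 40 exons gave 159 members and a length under 5000 nt gave 268 members with a summed ratio of 0.042; under both, 0 members were 1.5-fold higher, 0 were 1.5-fold lower and 0 were 2-fold lower. Counting exon rows as listed gave 966 members, of which 5 were 1.5-fold higher, 3 were 1.5-fold lower and 1 was 2-fold higher, with a summed ratio of 0.063. Leaving out members that overlap another model left 0 members 1.5-fold and 0 members 2-fold lower, since the gene on scaffold 10 is among those left out. With no interval required, 2 members were 1.5-fold lower. A mean CPM of at least 10, or a wider interval, left 1 member 1.5-fold higher. Without the 3 most abundant members, left out after seeing the data, the summed ratio was 0.042.

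With 1 library per condition leaving out a replicate was not possible. Differences between animals, cultures or library preparations cannot be told apart from the difference between the conditions. Depth limits members of few counts most: the gene of 25 and 17 counts had an interval of -1.83 to 0.098.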
